A study of Gallus gallus with 2 samples.

Results

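Cytosolic ribosomal protein genes encode the protein parts of the large (RPL) and small (RPS) subunits of the ribosome that makes cellular protein. They were chosen by symbol: an L or S number after RP with at most a letter or a digit behind it, plus the acidic stalk genes RPLP0, RPLP1 and RPLP2. The rule found 65 of 28190 gene columns, 42 of the large and 23 of the small subunit, and all 65 matched a RefSeq gene of the same assembly, on 25 chromosomes. RPSA, which the rule also names, and RPS19 have no value here under those symbols and were not analysed here.

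The cells came from the posterior end of wild-type chicken embryos incubated for 72 h, to the 35-somite stage. The study covers embryos given 20 uL of homocysteine, an intermediate of methionine metabolism, at 19 mM or 0.5 mM, and control embryos. Cells were tagged with lipid-anchored DNA barcodes and pooled before capture on BD Rhapsody beads, which give each captured poly(A) transcript a molecular identifier. No label ties a barcode to a dose, so all cells formed 1 pooled sample, control and treated embryos were not compared, and there were no replicates. Every interval below is a 95% interval that covers counting error only, and no value has a replicate check.

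Of 60000 cell barcodes, the 15494 with at least 4000 gene molecules were used. They held 482566923 gene molecules, 94.0% of the total, with a median of 25928 and a range of 4001 to 198554 molecules per cell. Transcripts of 13 mitochondrial genes made up 14.0% of these molecules, and 20.4% of cells were above 20%. Cell classes were gated on marker genes, which named 7202 cells (46.5%) in 15 classes of at least 50 cells and left 8259 in none. In each of the 15 classes 4 to 10 markers were at least 2-fold above all other cells. Among them were TBXT in tailbud, MSGN1 in presomitic, FOXF1 in splanchnic and CSF1R in macrophage-like cells. The fewest were in notochord-like cells, at 4 of 6 markers. The gate used these same markers, so their enrichment follows from it and does not test the class names. A second lipid barcode of at least 10 molecules, with a lead of the first of less than 3 times, was carried by 5596 cells, which may include doublets.

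Ribosomes are assembled in the nucleolus from ribosomal RNA and 1 copy of nearly every ribosomal protein, so cells usually make these proteins in balance. In vertebrates the mRNAs share a pyrimidine-rich start, the 5′ TOP motif, through which growth signalling controls their translation. Loss of single ribosomal proteins is known for tissue-specific defects, such as the changed axial skeleton of mice with too little RPL38. The members' own sequences were not used here.

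The 65 genes together supplied 40957439 molecules, 8.49% of all gene molecules (8.48 to 8.49%). Large-subunit genes made up 5.19% and small-subunit genes 3.30% of gene molecules. Per cell, the share had a median of 8.14%, with 7.16% at the 25th and 8.97% at the 75th percentile, and it ran from 0.311% to 22.1%. Values per gene are given as molecules per 1000000 gene molecules (CPM). Each transcript molecule is counted once whatever its length, so CPM was not divided by length. How completely the annotation captures each transcript was not tested, and it limits comparisons of level between genes.

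RPS20 (chromosome 2, 110903281 to 110905934 on GRCg7b), a protein of the small-subunit head, had the highest level at 3668 CPM (3663 to 3674). RPL6 followed at 3010, RPS23, which sits at the decoding centre, at 2796, RPS6, the target of S6 kinase, at 2250 and the stalk gene RPLP1 at 2227 CPM. At the low end RPL3L, the paralogue of RPL3 known for striated muscle in mammals, had 0.814 CPM from 393 molecules. Barcodes with under 500 molecules, taken here as free RNA, had 0.804 CPM of RPL3L. Free RNA held other members too, with RPS20 at 4473 CPM and RPL22L1 at 718 CPM. The summed share in free RNA was 9.48%, against 8.49% in all cells and 8.86% in cells of at most 20% mitochondrial molecules. RPS27L had 38.5, RPS28 67.3, RPL7L1 360 and RPL11 439 CPM, and 59 of the 65 genes reached 500 CPM. Levels of genes that act together were not equal: RPL5, which with RPL11 and 5S rRNA forms the particle that binds MDM2, had 2170 CPM beside 439 CPM for RPL11. The stalk genes RPLP0, RPLP1 and RPLP2 had 447, 2227 and 1240 CPM.

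The next question was whether the summed share differed between cell classes. It was high in hindgut endoderm-like cells, at 9.97% of gene molecules (9.94 to 10.0%, 78 cells), and low in macrophage-like cells, at 7.19% (7.16 to 7.23%, 70 cells). The ratio of these extremes was 1.39. Splanchnic lateral plate mesoderm-like cells had 9.23% (917 cells) and surface ectoderm-like cells 9.22% (990 cells), and their intervals overlapped. Notochord-like cells had 8.86%, neural crest-like cells 8.70%, endothelium-like cells 8.55% and erythroid-like cells 8.51%. Haemoglobin transcripts made up 19.6% of the erythroid-like molecules, and with haemoglobin and mitochondrial genes out of the denominator erythroid-like cells were the highest class at 13.2%, above hindgut endoderm-like cells at 11.3%. Below the class median lay dermomyotome and myotome-like cells at 8.38%, somite and sclerotome-like cells at 8.17% and neural tube-like cells at 8.09%, with intermediate mesoderm-like cells at the median of 8.44%. Tailbud progenitor-like cells had 8.06%, limb bud mesenchyme-like cells 8.04% and presomitic mesoderm-like cells 7.92%. Cells in no class had 8.48%, close to the 8.49% of all cells.

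**Figure D1:**
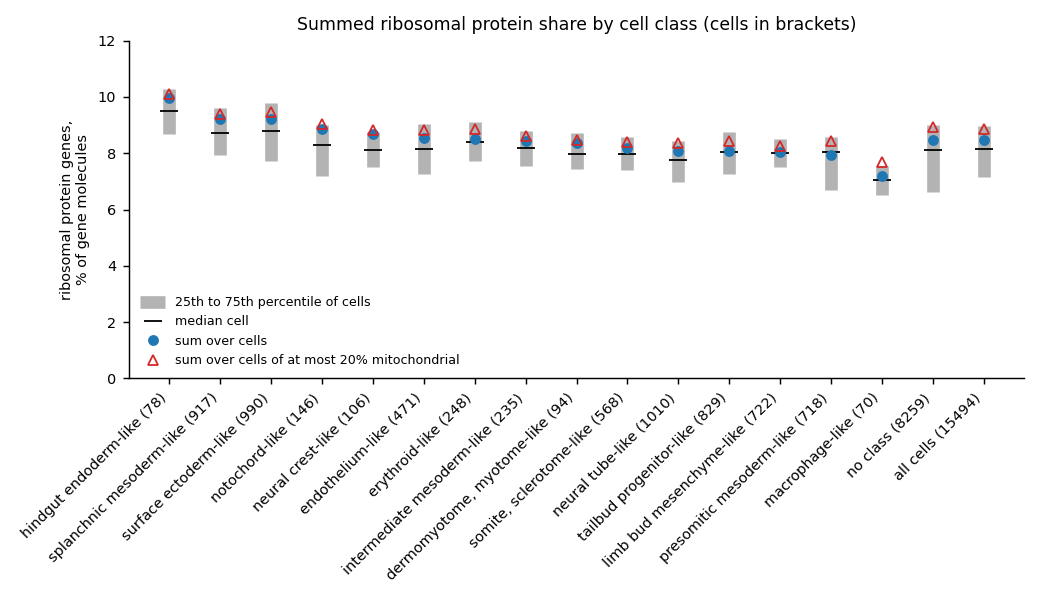
Ribosomal protein genes as % of gene molecules (y axis) in the 15 marker-gated classes, the cells in no class and all cells (x axis, number of cells in brackets). Grey bars span the 25th to 75th percentile of cells, dashes are median cells, dots are sums over cells and triangles the sums over cells with at most 20% mitochondrial molecules; hindgut endoderm-like cells sit highest at 9.97% and macrophage-like cells lowest at 7.19%.

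The spread between cells was wide against these differences. In hindgut endoderm-like cells the 25th to 75th percentile ran from 8.70 to 10.3%, against 6.51 to 7.56% in macrophage-like cells, so those ranges did not overlap. For splanchnic mesoderm-like cells it was 7.94 to 9.61% and for surface ectoderm-like cells 7.72 to 9.79%. Both overlapped the ranges of presomitic mesoderm-like cells (6.70 to 8.57%) and neural tube-like cells (6.98 to 8.42%).

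Depth and mitochondrial share differed between the extreme classes. Hindgut endoderm-like cells were the deepest class, with a median of 41054 molecules, and had the lowest mitochondrial share of the 15 at 11.5%. Macrophage-like cells had a median of 24552 molecules and the highest mitochondrial share at 18.1%. The other classes did not all follow this order. Surface ectoderm-like cells had a median of 23183 molecules and a ribosomal protein share of 9.22%. Dermomyotome and myotome-like cells had 35950 molecules and 8.38%. Among cells of at least 30000 molecules the hindgut endoderm-like share was 10.1%, that of surface ectoderm-like cells 9.80%, of splanchnic mesoderm-like cells 9.66% and of macrophage-like cells 7.68%. In that depth range the presomitic, neural tube, tailbud and limb bud classes lay between 8.37% and 8.59%. Splanchnic mesoderm-like and surface ectoderm-like cells were above tailbud, presomitic, neural tube and limb bud-like cells under each of the 22 settings in which all 6 classes had a value, a pattern picked out after the values had been seen. Some of the 22 could not change this order: leaving out hindgut endoderm-like or macrophage-like cells, and subtracting the same free RNA share from every class. An exception lay outside these settings: among cells of 4000 to 10000 molecules with at most 20% mitochondrial molecules, splanchnic mesoderm-like cells had 9.07%, below tailbud progenitor-like cells at 9.72% and neural tube-like cells at 9.10%. Of the limb bud mesenchyme-like cells, 72.3% lay near the marker threshold, so which cells fall in that class depends on the threshold. A Leiden cluster made without the ribosomal protein genes and named limb bud mesenchyme-like held 1412 cells, with a share of 8.35%.

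Large and small subunits kept step. The large-subunit share of the ribosomal protein molecules was 61.7% at its highest, in somite and sclerotome-like cells, and 60.1% at its lowest, in erythroid-like cells. With the large subunit alone the ratio of hindgut endoderm-like to macrophage-like cells was 1.39, and with the small subunit alone it was 1.38.

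Single genes were then compared between each class and all cells outside it, with a gene called when its CPM was at least 2 times or at most 0.5 times that outside, over at least 50 molecules. Over the 975 pairs of class and member, none was called higher, where 5.93% of all pairs of class and gene tested were (2.06 to 12.7% of 21102 genes by class). The rule called 2 pairs lower, RPL3L in notochord-like and in macrophage-like cells, where the background was 18.6% over all pairs, 14.4% in notochord-like and 36.9% in macrophage-like cells. RPL3L had 2 molecules in notochord-like and 0 in macrophage-like cells, and a count of 0 there allows up to 1.86 CPM (exact Poisson bound), so these calls rest on next to no molecules. Most members are abundant, and abundant genes were seldom called: of pairs with a gene of at least 500 CPM, 0.437% were called higher and 3.06% lower. These abundant genes include 59 of the members. Read against these rates, the lack of higher calls among the members was near the background of genes at their level. No member of at least 500 CPM was called lower in any class. Of all genes at that level 0.82 to 21.3% were called lower by class, the most in erythroid-like cells. The median ratio of the 65 members to the cells outside the class ran from 0.830 in macrophage-like to 1.17 in hindgut endoderm-like cells. Over all genes tested the medians there were 0.722 in macrophage-like and 0.952 in hindgut endoderm-like cells. All these ratios have haemoglobin in the total.

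Most members shared their extreme classes. By CPM, 56 of the 65 (86.2%) were highest in hindgut endoderm-like cells, as were 12.5% of all 21102 genes tested and 21.1% of the 185 other genes of at least 500 CPM. In macrophage-like cells 53 (81.5%) were lowest, as were 17.7% of all genes and 15.7% of those 185. These counts have haemoglobin in the total, which made up 19.6% of erythroid-like molecules, and they were not recomputed without it. For the summed share, leaving out haemoglobin and mitochondrial genes put erythroid-like cells highest, at 13.2% against 11.3% in hindgut endoderm-like cells. The number of members highest in hindgut endoderm-like cells thus depends on that denominator. To see what was left once the common level was removed, each gene was expressed as a share of the ribosomal protein molecules of its class. On this scale the median gene varied by 1.16-fold between its highest and lowest class, and 62 of the 65 varied by less than 1.5-fold. The remaining 3 were RPL22L1, RPS27L and the near-absent RPL3L, all paralogues of core ribosomal protein genes. The same spread was not computed for genes outside the set, so it does not show whether the members were more even than other genes.

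**Figure D2:**
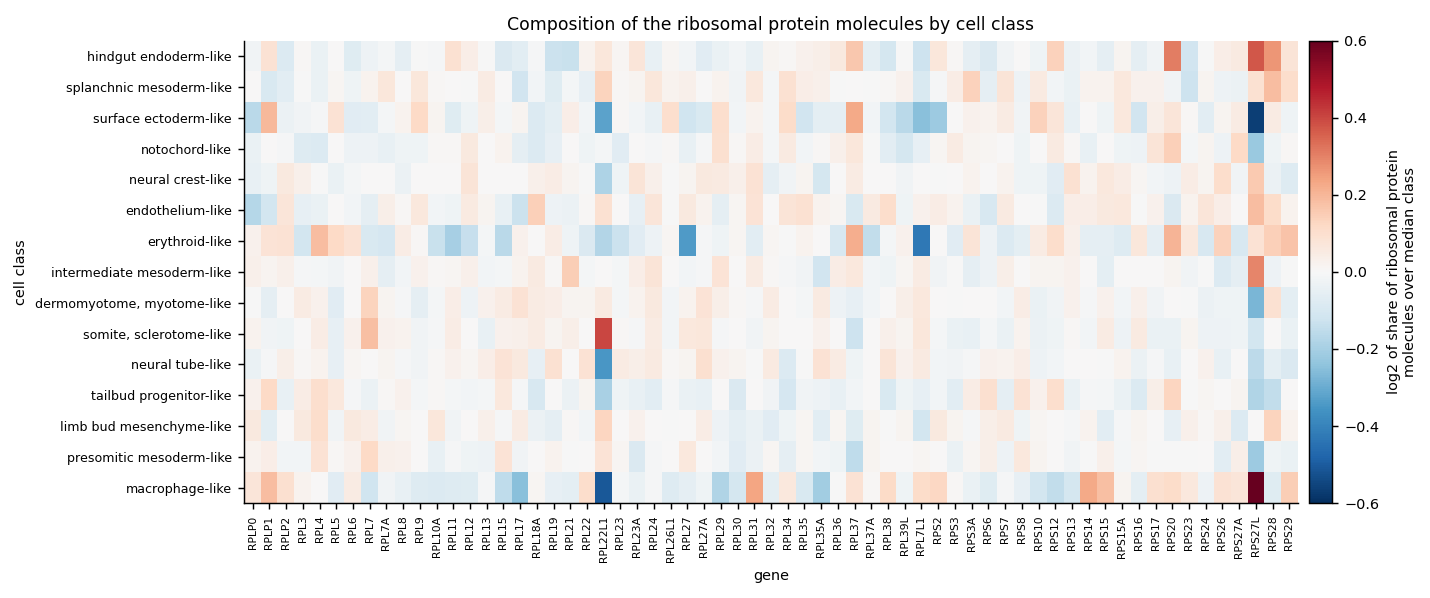
Each gene's share of the ribosomal protein molecules in a class, as log2 of its ratio to the median class (colour, saturated at the ends of the scale), for the genes drawn (x axis, without RPL3L) and the 15 classes (y axis, from the highest summed share at the top). Most cells of the map are pale; RPL22L1 is red in somite and sclerotome-like cells and blue in macrophage-like cells, and RPS27L is red in macrophage-like and blue in surface ectoderm-like cells.

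RPL22L1 encodes the paralogue of RPL22, and in mice the pair regulate each other's expression and haematopoietic development. It made up 0.945% of the ribosomal protein molecules of somite and sclerotome-like cells, 772 CPM (760 to 785), against 0.715% in the median class. Hindgut endoderm-like cells had 747 CPM and splanchnic mesoderm-like cells 725 CPM. Tailbud progenitor-like cells had 504, neural tube-like cells 453 and macrophage-like cells 362 CPM (336 to 390). The intervals of the 3 highest classes lay above those of the 3 lowest. The gene was named for its spread between classes and these are its extreme classes, so the separation is no separate support. RPL22 itself stayed between 974 CPM in macrophage-like and 1274 CPM in hindgut endoderm-like cells. The ratio of RPL22L1 to RPL22 molecules was 0.751 in somite and sclerotome-like cells, 0.602 in presomitic mesoderm-like cells, 0.492 in tailbud progenitor-like cells, 0.420 in neural tube-like cells and 0.372 in macrophage-like cells.

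The high share of RPL22L1 in somite and sclerotome-like cells was also found within the lipid barcodes SBC2, SBC3 and SBC7, the 3 that marked most cells. RPL22L1 took 1.003%, 0.970% and 0.816% of the ribosomal protein molecules in somite and sclerotome-like cells of these barcodes, the highest value of any class with at least 20 cells in each. In neural tube-like cells it took 0.561%, 0.571% and 0.627%. The somite values lay above all neural tube values in every barcode. On the CPM scale the class was not the highest in each: in SBC7 it had 661 CPM, below splanchnic mesoderm-like cells at 740 and notochord-like cells at 671, and in SBC2 it had 705 CPM, below notochord-like cells at 743.

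**Figure D3:**
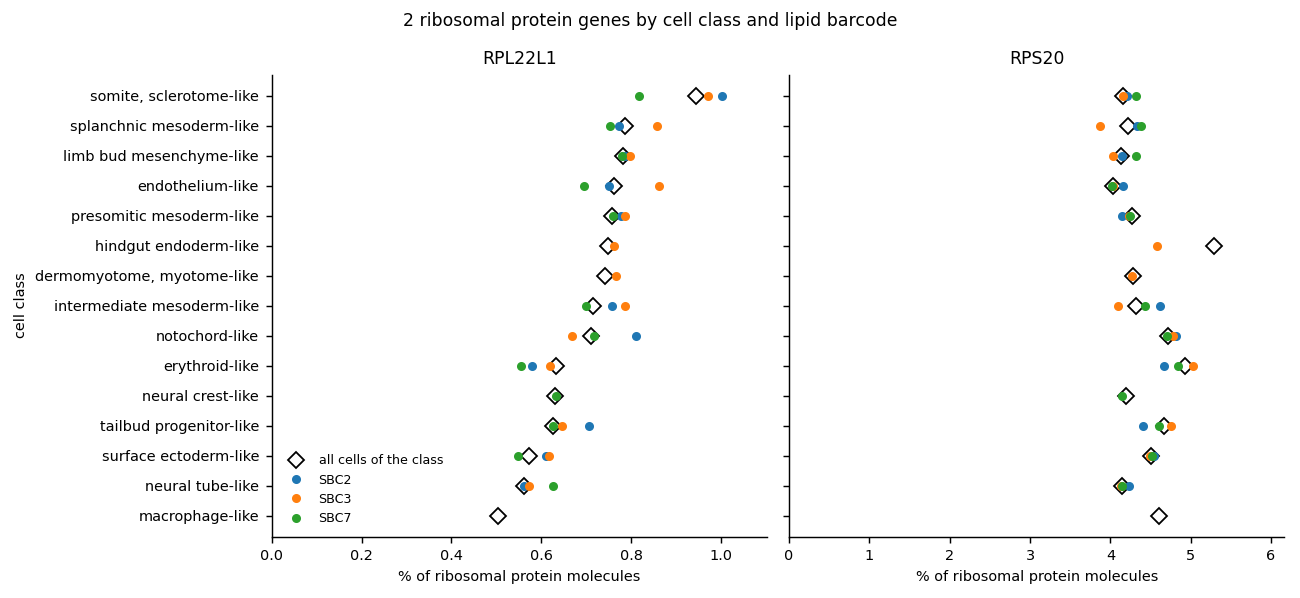
RPL22L1 (left) and RPS20 (right) as % of the ribosomal protein molecules (x axes) in the 15 classes (y axis), for all cells of a class (diamonds) and for its cells in each lipid barcode with at least 20 such cells (dots). RPL22L1 runs from 0.945% in somite and sclerotome-like cells at the top to 0.503% in macrophage-like cells, and RPS20 is highest in hindgut endoderm-like cells at 5.28%.

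RPS27L, a paralogue of RPS27 that responds to p53 in human cells, took 0.0758% of the ribosomal protein molecules of macrophage-like cells (0.0622 to 0.0915%, 108 molecules). The median class had 0.0480%, and surface ectoderm-like cells had 0.0325% (0.0304 to 0.0348%). On the CPM scale hindgut endoderm-like cells were higher still, at 62.0 (54.4 to 70.4), with a share of 0.0622%. RPS28, of the small-subunit head, was also highest there, at 91.2 CPM against 67.1 CPM in all other cells.

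RPS20 took 5.28% of the ribosomal protein molecules in hindgut endoderm-like cells, against 4.28% in the median class. Its level there was 5269 CPM (5197 to 5342). In SBC3, the barcode with at least 20 hindgut endoderm-like cells, the share was 4.58%, below the 5.03% of erythroid-like cells in the same barcode, so the hindgut class was not the highest there.

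Erythroid-like cells, gated on haemoglobin genes, differed from the rest in several core genes at once. RPL27 made up 1.66% of their ribosomal protein molecules (1.63 to 1.70%), against 2.11% in the median class. RPL7L1, whose product acts in ribosome assembly, made up 0.325% against 0.437%. In the other direction RPL4 made up 1.66% against 1.46%. RPS20 was at 4.93% in these cells. Within SBC3, where 153 of the 248 erythroid-like cells lay, RPL27 was at 1.64% and RPL4 at 1.70%.

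Macrophage-like cells were low in RPL17, at 1.73% of the ribosomal protein molecules against 2.06% in the median class. RPL31 was at 2.97% against 2.52% and RPS14 at 1.34% against 1.15%. These 70 cells gave 142453 ribosomal protein molecules, and fewer than 20 of them fell in any 1 barcode, so no value by barcode was available. Surface ectoderm-like cells were high in RPL37, at 1.08% against 0.925%, and in RPLP1, at 2.96% against 2.59%. Other classes came close. RPL37 was at 1.08% in erythroid-like and 1.03% in hindgut endoderm-like cells. RPLP1 was at 2.94% in macrophage-like and 2.81% in tailbud progenitor-like cells. RPL17 and RPL37 lie on the Z chromosome, and class values were not adjusted for the mix of cells with and without W-linked transcripts. In SBC2 those numbered 263 and 71 in splanchnic mesoderm-like cells, but 41 and 101 in presomitic mesoderm-like cells. The mix in macrophage-like cells was not examined.

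Several other members with known roles varied in share by 1.08-fold to 1.22-fold between classes, on both sides of the 1.16-fold of the median member. RPL38, needed for translation of HOX mRNAs in mice, had 774 CPM in tailbud progenitor-like cells, its lowest class, and 948 CPM in splanchnic mesoderm-like cells, its highest. As a share of ribosomal protein molecules it varied by 1.17-fold over the classes. RPL24, reduced in the Belly spot and tail mouse, varied by 1.10-fold, and RPL10A, found in only some ribosomes of mouse stem cells, by 1.15-fold. For RPL5 the figure was 1.14, for RPL11 1.22, for RPS3 1.08, for RPS6 1.14, for RPS7 1.12 and for RPS27A, made as a fusion with ubiquitin, 1.16. RPL7L1 ran at 0.236 times the molecules of RPL7 over all cells. RPL26L1 at 2058 CPM and RPL39L at 1071 CPM carry paralogue names but had levels within the range of the core genes.

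Mitochondrial content separated cells much more strongly than class did. In cells with at most 20% mitochondrial molecules (12336 cells) the ribosomal protein genes made up 8.86% of gene molecules. With over 20 to 40% (1498 cells) the share was 5.22%, and with over 40% (1660 cells) it was 1.81% (1.80 to 1.82%). Mitochondrial molecules are part of the denominator, but the share among the other gene molecules was also 10.1%, 7.18% and 3.61% in the 3 groups. The groups differed in depth, with medians of 29896, 12225 and 8094 molecules per cell.

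Nearly the whole set took part. In cells over 40% mitochondrial, 64 of the 65 genes had at most 0.5 times the CPM of cells at or under 20%. Of all 20925 genes tested 27.2% did, and of the 244 genes of at least 500 CPM 82.0%. Those 244 include 59 of the members themselves. The median ratio over the members was 0.199, and that over all genes tested was 0.814. The ratios of 61 genes lay between 0.15 and 0.27. RPLP1 kept a higher level, with 944 CPM in cells over 40% against 2295 CPM in cells at most 20% mitochondrial, a ratio of 0.411. RPS28 had a ratio of 0.363 and RPL23A one of 0.305, while RPS23 had the lowest of the set at 0.159. RPL3L alone was not lower, with 16 molecules in the mitochondria-rich cells and a ratio of 1.39. As a share of the ribosomal protein molecules, RPLP1 stood at 5.21% in cells over 40% and 2.59% in cells at most 20% mitochondrial.

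**Figure D4:**
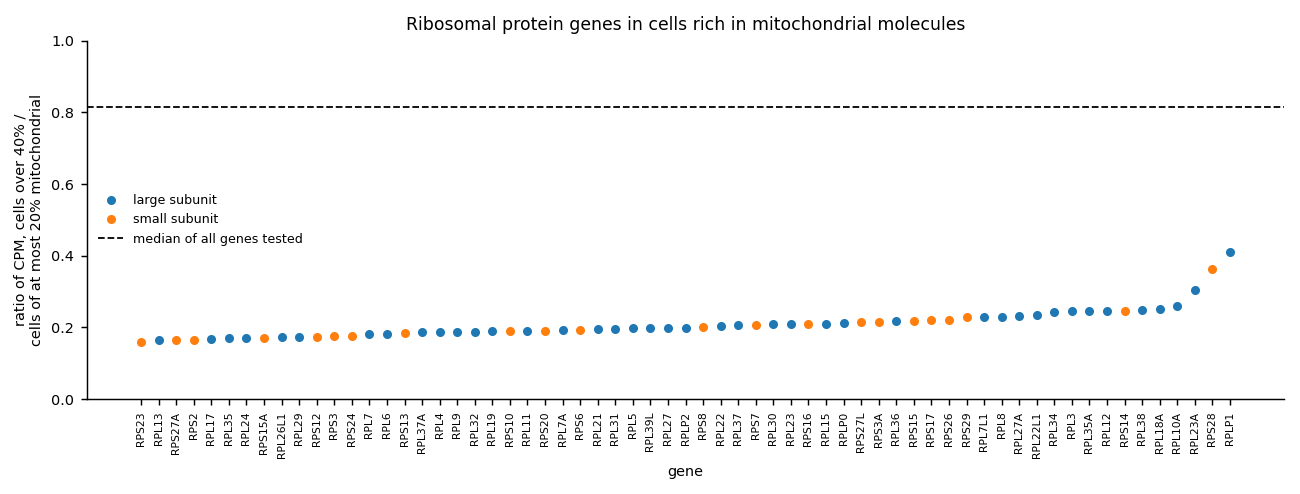
Ratio of CPM in cells with over 40% to cells with at most 20% mitochondrial molecules (y axis, linear) for the ribosomal protein genes drawn, in rising order and without RPL3L (x axis), coloured by subunit. The dashed line is the median of all genes tested, 0.814; every gene drawn lies below it, from RPS23 at 0.159 to RPLP1 at 0.411.

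The same was seen inside the classes. All 11 classes with at least 20 cells on both sides had a lower share in their cells over 20% than in those at most 20% mitochondrial, by a ratio of 0.405 in presomitic mesoderm-like to 0.706 in macrophage-like cells. Presomitic mesoderm-like cells had 3.42% over and 8.45% at or under 20%, and neural tube-like cells 3.58% and 8.37%. The translation factor list was lower too, at 4941 CPM in cells over 40% against 20367 CPM in cells at most 20% mitochondrial. The ribosome biogenesis list was at 3028 against 8688 CPM and the growth regulator list at 784 against 1600 CPM. Mitochondrial molecules were 49.8% of the total in the first group and 12.2% in the second, which by itself lowers the CPM of other genes. The lists were not recomputed without mitochondrial molecules, so their change among the other molecules is not given. Within depth ranges, the ribosomal protein share of all cells can be set beside that of cells at most 20% mitochondrial. It was 4.83% and 9.89% at 4000 to 10000 molecules, and 7.65% and 8.20% at 10000 to 30000. At 30000 or more it was 9.05% and 9.08%. The part of depth was not tested further, and not at all for the lists.

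Lipid barcodes differed in the share of such cells. The summed share was 8.93% in the 2225 cells of SBC7, 8.87% in the 4554 cells of SBC3 and 7.41% in the 3047 cells of SBC2. Cells with over 20% mitochondrial molecules made up 30.3% of SBC7, 3.97% of SBC3 and 53.5% of SBC2 cells. Among cells at most 20% mitochondrial the shares were 9.47%, 8.92% and 8.77% in the same order of barcodes. Cells over 40% mitochondrial had 1.70%, 2.16% and 1.76%. As the labels do not say what each barcode marks, the barcodes were not averaged or tested.

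Within barcodes the order of the larger classes was mostly kept. Splanchnic mesoderm-like cells had 9.82%, 9.30% and 8.67% in SBC7, SBC3 and SBC2, and surface ectoderm-like cells 9.58%, 9.47% and 8.60%. Presomitic mesoderm-like cells had 8.07%, 8.55% and 5.86%, and limb bud mesenchyme-like cells 8.21%, 8.24% and 6.92%. Those presomitic values move with mitochondrial shares of 16.0%, 13.0% and 25.02%. With at most 20% mitochondrial molecules, presomitic mesoderm-like cells had 8.87%, 8.61% and 8.43%.

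Of the 65 genes, 4 lie on the Z chromosome in RefSeq: RPL17 (1407838 to 1411201 on GRCg7b), RPL37 (13450339 to 13452935), RPS6 (34189975 to 34194432) and RPS23. Birds with a Z and a W chromosome are female and those with a pair of Z chromosomes male, and dosage compensation of Z-linked genes is incomplete in chicken. Cells were split by detection of any molecule of 4 W-linked genes (HINTW, SPIN1L, UBAP2L2 and SMAD7B). In SBC2, 1396 cells were W-positive and 1651 W-negative, which includes any cell whose W transcripts were missed.

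There the 3 genes RPS6, RPS23 and RPL17 were lower in W-positive cells by nearly the same factor. RPS6 made up 1.91% of the ribosomal protein molecules in W-positive and 2.80% in W-negative cells, a ratio of 0.682 (0.674 to 0.690). RPS23 made up 2.32% and 3.36%, a ratio of 0.689 (0.682 to 0.696). RPL17 made up 1.45% and 2.09%, a ratio of 0.692 (0.683 to 0.701). RPL37 stood apart from them, with 0.884% in W-positive and 0.945% in W-negative cells, a ratio of 0.935 (0.918 to 0.953). The 58 members on other chromosomes with at least 5000 molecules ran from 0.905, for RPLP1, to 1.13, and the median of all 61 was 1.03. Over the 515 Z-linked genes tested the median ratio of CPM was 0.790, and over 10244 autosomal genes it was 1.05. On that CPM scale the members themselves were at 0.815 for RPS6, 0.823 for RPS23, 0.827 for RPL17 and 1.12 for RPL37, since ribosomal protein genes made up 7.99% of molecules in W-positive and 6.69% in W-negative cells. Over all SBC2 cells the first 3 were thus slightly above the Z-linked median on this scale, while their shares cannot be set against it. That position rests on the difference in summed share. Among SBC2 cells of at least 20000 molecules the summed shares were 8.76% and 8.41%, and the Z-linked median was 0.775. With the share ratios of those cells, given below, the first 3 lie below that median on the CPM scale.

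W-positive and W-negative cells of SBC2 also differed in depth, with medians of 21071 and 10606 molecules, and in mitochondrial share, at 17.6% and 22.2%. Restricted to cells of at least 20000 molecules (740 W-positive and 525 W-negative, medians 33464 and 33332), the ratios were 0.687 for RPS6, 0.687 for RPS23, 0.690 for RPL17 and 0.941 for RPL37. In splanchnic mesoderm-like cells of SBC2 (263 W-positive and 71 W-negative) RPS6 was at 0.595, RPS23 at 0.586, RPL17 at 0.610 and RPL37 at 0.935. Over the 7 classes with at least 20 cells on each side, the ratio of RPS6 ran from 0.595 to 0.791 and that of RPL37 from 0.835 to 1.05.

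The other barcodes held few W-positive cells. In SBC3 (565 W-positive, 3989 W-negative) the ratios were 0.926 for RPS6, 0.934 for RPS23, 0.931 for RPL17 and 0.992 for RPL37, and in SBC7 (266 and 1959 cells) 0.983, 0.966, 0.992 and 1.01. The median ratio of CPM over all Z-linked genes tested was also near 1 there, at 0.959 in SBC3 and 0.990 in SBC7. A single W-linked molecule can come from free RNA or a doublet, which was not tested. With at least 2 W-linked molecules required, 167 W-positive SBC3 cells gave 0.774 for RPS6, 0.795 for RPS23, 0.787 for RPL17 and 0.980 for RPL37. RPS6, RPS23 and RPL17 were thus lower in W-positive cells of SBC2 and SBC3 under each of these settings, with ratios farther from 1 at the higher threshold.

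**Figure D5:**
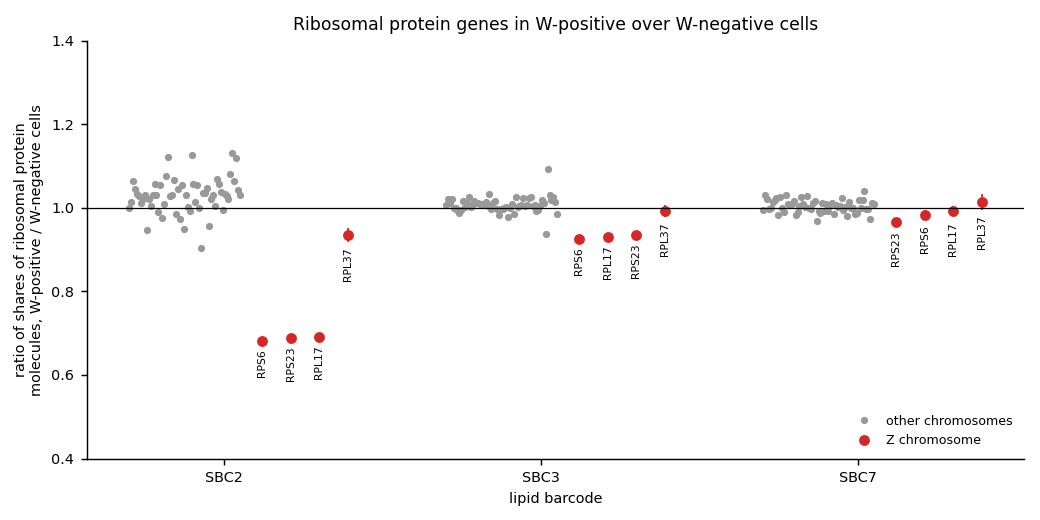
Ratio of each gene's share of ribosomal protein molecules in W-positive over W-negative cells (y axis) in the 3 lipid barcodes (x axis), with Z-linked genes in red (bars are 95% counting intervals) and genes of at least 5000 molecules on other chromosomes in grey. In SBC2 RPS6, RPS23 and RPL17 sit at 0.682 to 0.692 and RPL37 at 0.935, near the grey points.

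Genes around the ribosome were read from lists chosen for this comparison, summed in the same classes. The 16 translation factor genes had 19576 CPM over all cells, with 23391 CPM in hindgut endoderm-like cells at the top and 15906 CPM in macrophage-like cells at the bottom. With haemoglobin left out of the total, erythroid-like cells were highest at 23992.8 CPM, above hindgut endoderm-like cells at 23392.5 CPM. Across the 15 classes, with haemoglobin in the total, the translation factor sum had a Pearson correlation of 0.90 with the ribosomal protein share. It describes classes from 1 pool that share depth and denominator. EEF1A1, the elongation factor that brings aminoacyl-tRNA, had 5819 CPM in hindgut endoderm-like and 4003 CPM in macrophage-like cells. EEF1B2, its exchange factor subunit, had 3062 and 2164 CPM in the same classes, and NPM1, a nucleolar protein kept on that list, had 3824 CPM in hindgut endoderm-like and 1788 CPM in erythroid-like cells. PABPC1, the poly(A) binding protein, went its own way, with 4411 CPM in erythroid-like cells (4356 to 4467) against 1568 CPM in the median class. EEF1D, another exchange factor subunit, had 1070 CPM in the hindgut endoderm-like class and 795 CPM in the median class.

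The 36 ribosome biogenesis genes did not follow the ribosomal proteins. Their correlation with the share over the 15 classes, with haemoglobin in the total, was 0.25. Hindgut endoderm-like cells were again highest at 9919 CPM, but neural crest-like cells came next at 9779 CPM, and surface ectoderm-like cells, among the highest in ribosomal proteins, had 6865 CPM. Erythroid-like cells had 6441 CPM, the lowest value, but 8013 CPM once haemoglobin was left out of the total, where macrophage-like cells were lowest at 6747 CPM. NCL, the most abundant, had 4147 CPM in hindgut endoderm-like and 2299 CPM in erythroid-like cells. NOP58 and NOP56, of the box C/D snoRNP, were highest in neural crest-like cells at 552 and 429 CPM. RRP12 and UTP4, needed to make the small subunit, were also highest there, at 92.1 and 154 CPM, against 58.1 and 108 CPM in the median class.

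The 66 mitochondrial ribosomal protein genes, whose products form a separate ribosome, ran from 6686 CPM in hindgut endoderm-like to 5155 CPM in macrophage-like cells. Their correlation with the share, with haemoglobin in the total, was 0.56. MRPL57, MRPS5 and MRPL12 led by level at 361, 231 and 228 CPM over all cells. MRPL24 reached 98.6 CPM in erythroid-like cells against 40.4 in the median class, and MRPL45 67.2 CPM in hindgut endoderm-like cells against 37.5. The sum of the 15 growth regulators had a correlation of 0.0030 with the share, with haemoglobin in the total. That list mixes genes that promote growth with repressors such as EIF4EBP1 and EIF4EBP2, so its sum has no single direction. Erythroid-like cells were at 1433 CPM, but at 1783 CPM with haemoglobin left out, where the correlation was not computed. Neural crest-like cells had the most at 1930 CPM and macrophage-like cells the least at 1250 CPM. EIF4EBP2 and EIF4EBP1, repressors of cap-dependent translation, had 268 and 246 CPM over all cells. MYCN reached 357 CPM in limb bud mesenchyme-like cells and 52.2 in erythroid-like cells, where MYC was at 122 CPM and LARP1, which binds 5′ TOP mRNAs, at 391 CPM, against 196 CPM for LARP1 in the median class.

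Columns outside all lists with at least 500 CPM were ranked by their correlation with the ribosomal protein share over the 15 classes. Of 162 such columns, the 5 highest were 3 without a gene name in the files or in RefSeq, at 0.96, 0.95 and 0.82, SLC37A4 at 0.89, and RPS4Y1 at 0.85. SLC37A4 encodes a glucose-6-phosphate transporter and lies beside RPS25 in RefSeq, which was not analysed here. RefSeq gives RPS4 and RPS4X as other symbols of RPS4Y1, so it too is a small-subunit gene that the symbol rule left out, and it had 825 CPM. RPSAP58, for which RefSeq lists RPSA among other symbols, had 1032 CPM.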

How the data were processed

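The deposited table holds counts of molecules per cell barcode, corrected by molecular identifier. Per the file headers, reads were processed with BD Rhapsody pipeline 1.11 on GRCg7b with Ensembl release 107, reads in introns counted, and the cell number was fixed at 60000. R 3.6.2 and Seurat are named in the submitters' processing notes, and their role is not given in the sources used here. The strand setting of the counting was not given either, so reads of overlapping genes, antisense genes and paralogues may be shared.

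From these counts, cells with at least 4000 molecules over the gene columns were kept, with no other filter. A class needed marker molecules at 3 times their expected number, at least 3 markers and 4 molecules, and a lead of 1.5 times over the next class. The members, lists and markers were chosen with earlier results of these data known, and the gating rule after clusters and class shares had been seen. Genes named were the 5 highest and 5 lowest members by CPM, the members whose share of ribosomal protein molecules varied most between classes, genes with known roles, and for each related list the most abundant and most variable genes; some of these are not reported here. No doublet caller was run; cells with a second lipid barcode and cells of at least 50000 molecules were left out as alternatives. A lipid barcode was assigned with at least 10 molecules and a lead of 3 times. With 1 pooled sample no test was made; intervals are exact Poisson for CPM and Clopper-Pearson for shares, at 95%. Python 3.11.15, numpy 2.4.6, scipy 1.17.1, pandas 2.3.3, scanpy 1.11.5 and igraph 0.11.9 were used, and the calling rule was tested on simulated data. Alternatives covered depth, mitochondrial share, gating, denominator, barcode and fold.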

Additional observations from a re-analysis of the deposited data

How the results depend on the processing

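The ratio of the highest to the lowest class share, 1.39, was recomputed under 25 alternatives. Hindgut endoderm-like cells were highest in 18 of the 19 that hold the class, and macrophage-like cells lowest in all 16 that hold theirs. These counts include settings that could not change the rank: subtracting free RNA, and leaving out the class at the other extreme. The ratio was 1.21 with at least 20000 molecules, 1.22 with at most 20% and 1.21 with at most 10% mitochondrial molecules, 1.32 without cells of at least 50000 molecules, 1.28 without cells of more than 1 lipid barcode and 1.35 with the median per cell. Macrophage-like cells had under 50 cells and so no value at 20000 molecules, under both mitochondrial limits and without cells of more than 1 barcode, so the change there is in part the lost class. With them kept, the value at most 20% mitochondrial was 1.31. With haemoglobin and mitochondrial genes out of the denominator it was 1.51, with erythroid-like cells highest. It was 2.92 at 4000 to 10000, 1.30 at 10000 to 30000 and 1.31 at 30000 or more molecules, 1.44 after subtracting free RNA, 1.67 within SBC2, 1.26 within SBC3 and 1.37 within SBC7. Without hindgut endoderm-like cells it was 1.28 and without macrophage-like cells 1.26. The cause was not tested.

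The count of called pairs of class and gene, 2, was 9 at 1.5-fold (where 6.16 to 18% of all genes were higher and 17.9 to 56.7% lower by class), 1 at 3-fold, 1 with Leiden clusters and 0 without RPL3L. The ratio of the highest to the lowest barcode, 1.21, was 1.14 with at least 10000 molecules, 1.08 with at most 20% and 1.07 with at most 10% mitochondrial molecules, 1.20 with classes weighted equally and 1.44 with a barcode lead of 10. The median ratio of the Z-linked genes, 0.690 in SBC2, was 0.656 with at least 2 W-linked molecules, 0.825 on the CPM scale, 0.933 in SBC3 and 0.987 in SBC7. The ratio for the translation factor list, 1.47, was 1.54 with haemoglobin and mitochondrial genes out of the denominator, with erythroid-like cells highest. Of 342 class values recomputed, 280 moved beyond their counting interval and 90 left the 25th to 75th percentile of cells. No paired analysis was possible because the labels give 1 pooled sample. Chosen after seeing the data were the settings within a barcode, without a class or RPL3L, the barcode ratio and the Z-linked ratio with at most 20% mitochondrial molecules, the Z-linked ratio in SBC3, in SBC7 and on the CPM scale, and the biogenesis list without haemoglobin.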

Other observations

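In Leiden clusters made without the ribosomal protein genes, 180 surface ectoderm-like cells led by OVAL, SCEL and AGR2 had a ribosomal protein share of 11.1%, 321 led by APOD and CXCL14 had 9.45%, and the other surface ectoderm-like clusters had 11.3% (118 cells, median 5865 molecules) and 8.76% (708 cells). The hindgut endoderm-like cluster, of 595 cells against the 78 gated by markers, had 9.57%, below the first and the third of these. A cluster of 496 presomitic mesoderm-like cells with 38.8% mitochondrial molecules had 2.62%.

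The share also varied in barcodes below the limit of 4000 molecules. It was 7.97% in those under 200 molecules, 11.4% at 1000 to 2000 and 10.0% at 2000 to 4000, but 4.83% at 4000 to 10000, where 32.8% of molecules were mitochondrial and cells with at most 20% had 9.89%. Cells of 60000 or more molecules had 9.88%.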
